A study of Solanum lycopersicum with 8 samples.

Results

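The circadian clock genes of tomato were taken as 10 genes by their identifiers, out of 34688 genes with values. They comprised *LHY*, 5 genes of the *TOC1* and *PRR* family, 2 copies of *GIGANTEA*, *ELF3* and *ELF4*, and all 10 passed the filter on low values. RNA was sequenced from whole wild-type Micro-Tom seedlings, 10 days old, with 4 libraries from Torin2-treated seedlings and 4 from mock-treated seedlings. The Torin2 group received 5 μM Torin2, a small-molecule inhibitor of the TOR kinase, for 2 h, and the mock group received 0.1% DMSO. Both groups grew on half-strength MS medium at 25 °C with 16 h of light and 8 h of dark. The hour of harvest and the number of seedlings in a library were not given in the sources used here, which matters for genes whose level changes through the day. Each library mixes all organs of the seedling, so that a lower level in each cell and fewer cells expressing a gene cannot be told apart.

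The plant clock is a network of transcriptional repressors that act on each other in turn through the day. In *Arabidopsis*, the MYB factor LHY accumulates at dawn and represses evening genes. The pseudo-response regulators PRR9, PRR7, PRR5 and TOC1 follow one another from morning to evening and repress *LHY*. GIGANTEA is an evening protein that stabilizes a clock photoreceptor and promotes flowering, and ELF3 and ELF4 belong to the evening complex, which represses its targets at night. Here *LHY* and the *PRR9*-type and *PRR7*-type genes were taken as morning genes. The 2 *TOC1*-type genes, both *GIGANTEA* copies, *ELF3* and *ELF4* were taken as evening genes, and the *PRR5*-type gene as neither. The files do not pair identifiers with names, and the RefSeq table used here holds no Solyc identifiers. The names and the types within the *PRR* family therefore rest on general knowledge of the tomato genome.

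Expression was measured as FPKM, the number of fragments scaled to the length of the gene and to the depth of the library. The libraries held between 36989257 and 39868131 fragments, and the clock genes were covered by 73 to 5145 fragments each. After the mean of each condition was subtracted, the leading principal component parted the libraries into 2 kinds and held 53.6% of the remaining variance. Torin2 replicates 2 and 4 and mock replicates 1 and 2 made up the first kind, and Torin2 replicates 1 and 3 and mock replicates 3 and 4 the second. The kinds were taken from these data and not from a label, so that some difference between them was built in. The component was computed without the clock genes. Each kind holds 2 libraries of each condition. Long genes were lower and short genes higher in the second kind, with a Spearman's rho of -0.54 between length and difference across the 22330 genes tested, which are not independent replicates.

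Under Torin2, 9 of the 10 clock genes had a higher mean than in mock-treated seedlings and *ELF4* a lower one, and none of these differences passed the test. A call required an adjusted p under 0.05 and a log2 fold change beyond 1 in either direction (limma with Benjamini-Hochberg adjustment over the 22330 genes tested). Both cut-offs were passed by none of the 10 and by 8.32% of all genes tested. None passed the adjusted p alone, against 12.6% of all genes tested. Before adjustment, 4 of the 10 had a p under 0.05, all of them higher in Torin2-treated seedlings, against 29.1% of all genes tested in either direction and 19.0% that were higher. The log2 fold change was above 0 for 9 of the 10, and 61.4% of all genes tested lay above 0. That count of 9 became 8 with median-of-ratios scaling or limma-voom, 7 with quantile normalization and 5 with the trend with gene length removed. The median was 0.55 over the 10 clock genes and 0.16 over all genes tested. By length, the latter was 0.29 for 2000 to 2500 bp, 0.41 for 2500 to 3000 bp and 0.62 for 4000 to 5000 bp. These lengths take in 9 of the 10 clock genes. Some other settings changed the counts of clock genes that passed, mostly through the *PRR7*-type gene and *Solyc06g069690.4*, whose adjusted p-values lay just over 0.05. With TPM scaling the count stayed at 0, and the limma adjusted p was 0.137 for the *PRR7*-type gene and 0.144 for *Solyc06g069690.4*. With limma-voom on the recovered fragments, 3 clock genes were higher at an adjusted p under 0.05, against 10.9% of all genes tested. It was 2 clock genes, all higher, with median-of-ratios scaling (10.1% of all genes tested were higher), with quantile normalization (9.73%), with a filter at a mean of 1 FPKM (8.86%) and with the trend with gene length removed (11.9%). A covariate for the kind of library gave 6 higher and 1 lower clock gene, while 25.7% of all genes tested were higher and 12.6% lower in that fit. These 7 were *LHY*, the *PRR7*-type gene, *Solyc06g069690.4*, both *GIGANTEA* copies, *ELF3* and, as the lower one, *ELF4*. Since the kinds come from the same libraries, such a covariate shrinks the residual variance in any case. The first kind alone, with 2 libraries against 2, gave 6 higher and 1 lower clock gene as well, against 21.5% and 9.96% of all genes tested. In the second kind alone limma called none, where 4.50% of all genes tested were higher and 3.10% lower, and 4 clock genes had an unadjusted p under 0.05, as had 6705 of the 22330 genes tested.

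**Figure D1:**
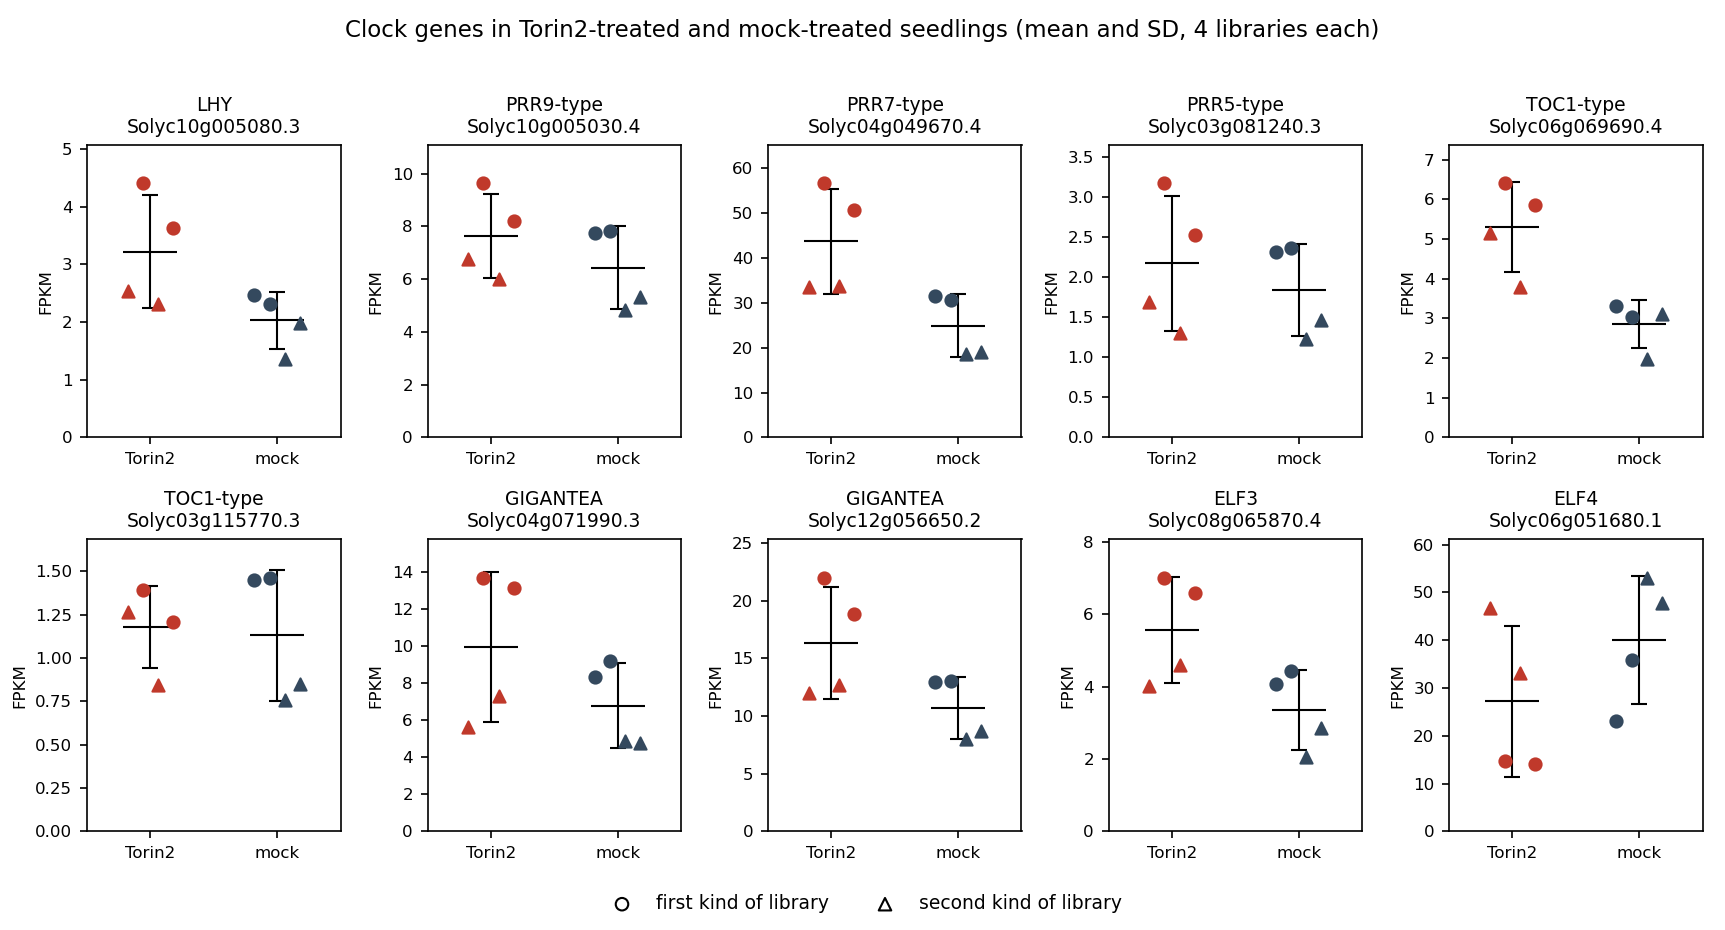
FPKM of each clock gene (vertical axes, from 0) in the 4 Torin2 and the 4 mock libraries, with a black bar for the mean and SD; circles are libraries of the first kind and triangles those of the second. The *PRR7*-type gene and the *TOC1*-type gene *Solyc06g069690.4* are the 2 genes whose Torin2 libraries all lie above their mock libraries, and *ELF4* alone is higher in triangles than in circles in both conditions.

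*LHY* (*Solyc10g005080.3*), the dawn repressor, was measured at 2.54, 4.40, 2.31 and 3.63 FPKM in Torin2 replicates 1 to 4, against 2.46, 2.31, 1.36 and 1.98 FPKM in mock replicates 1 to 4. Of the Torin2 libraries, 3 lay above the highest mock library, and the groups overlapped through Torin2 replicate 3. The mean was 3.22 ± 0.978 FPKM in Torin2-treated and 2.03 ± 0.489 FPKM in mock-treated seedlings (SD, n = 4 each). This corresponds to a log2 fold change of 0.63 with a standard error (SE) of 0.31 (limma adjusted p = 0.190). The first kind of libraries gave 0.72 and the second 0.53, and 0.19 was left after removal of the trend with gene length.

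The *PRR7*-type gene (*Solyc04g049670.4*), a daytime repressor of *LHY* in *Arabidopsis*, had the highest mean of the clock genes over all Torin2 libraries, though in the second kind of them *ELF4* was higher (40.0 FPKM, against 33.7 FPKM for the *PRR7*-type gene). It was measured at 33.5, 56.6, 33.8 and 50.8 FPKM in Torin2 replicates 1 to 4, against 31.5, 30.6, 18.6 and 19.1 FPKM in mock replicates 1 to 4. The groups did not overlap, although the lowest Torin2 library exceeded the highest mock library by little. The mean was 43.7 ± 11.8 FPKM in Torin2-treated and 24.9 ± 7.06 FPKM in mock-treated seedlings (SD, n = 4 each), 1.75-fold higher under Torin2. On the log2 scale the difference was 0.81 (standard error 0.26), and the limma adjusted p of 0.0514 missed the threshold. Both kinds of libraries gave nearly the same value, 0.79 for the first and 0.83 for the second. With the trend with gene length removed, it was 0.51 with an adjusted p of 0.00455 (limma). Over the 23 alternatives it ranged from 0.51 to 0.94, and the adjusted p, from 0.000298 to 0.174, was under 0.05 in 10 of them, among them the fits without Torin2 replicate 1 (0.0289) and without mock replicate 1 (0.0481).

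The *PRR9*-type gene (*Solyc10g005030.4*), an early-morning member of the same family, had 6.75, 9.63, 6.0 and 8.19 FPKM in Torin2 replicates 1 to 4, against 7.75, 7.82, 4.83 and 5.32 FPKM in mock replicates 1 to 4. The groups overlapped widely, and within each condition the libraries of the first kind were the higher ones. Its log2 fold change of 0.25 (SE 0.26, adjusted p = 0.556 with limma) turned to -0.09 with the length trend removed. For the *PRR5*-type gene (*Solyc03g081240.3*), which peaks later in the day in *Arabidopsis*, the values were 1.70, 3.17, 1.30 and 2.53 FPKM in Torin2 replicates 1 to 4, against 2.31, 2.36, 1.23 and 1.47 FPKM in mock replicates 1 to 4. The mock libraries of the first kind stood above the Torin2 libraries of the second, and the log2 fold change was 0.20 (SE 0.34, adjusted p = 0.745 with limma). It was -0.22 with the length trend removed, so that no direction can be given for either gene.

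The 2 *TOC1*-type genes, evening members of the *PRR* family, had unequal fold changes. *Solyc06g069690.4* was measured at 5.17, 6.40, 3.80 and 5.86 FPKM in Torin2 replicates 1 to 4, against 3.31, 3.05, 1.98 and 3.11 FPKM in mock replicates 1 to 4. Again no mock library reached the lowest Torin2 library. The mean was 5.31 ± 1.13 FPKM in Torin2-treated and 2.86 ± 0.598 FPKM in mock-treated seedlings (SD, n = 4 each), 1.85-fold higher under Torin2. Its log2 fold change of 0.87 (standard error 0.28) was the largest among the clock genes, and the limma adjusted p of 0.0516 missed the threshold. The first kind of libraries gave 0.93, the second 0.81, and the fit without the trend with gene length 0.55 (limma adjusted p = 0.0361). Without Torin2 replicate 3 it was 1.02 with an adjusted p of 0.0427 (limma), the single alternative under which a clock gene passed both cut-offs. Its adjusted p ran from 0.0036 to 0.145 over the 23 alternatives and was under 0.05 in 10.
*Solyc03g115770.3*, the less abundant *TOC1*-type gene, had 1.27, 1.39, 0.842 and 1.21 FPKM in Torin2 replicates 1 to 4, against 1.45, 1.46, 0.760 and 0.849 FPKM in mock replicates 1 to 4. The mock libraries held both the highest and the lowest value. Its log2 fold change of 0.09 (SE 0.33, adjusted p = 0.895 with limma) did not keep its sign between the kinds of libraries, -0.16 in the first against 0.33 for the second.

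Since both *TOC1*-type genes have nearly the same length, 2456 and 2409 bp, their ratio within a library is little touched by the scaling or by the trend with gene length. The ratio of *Solyc06g069690.4* to *Solyc03g115770.3* was 4.08, 4.61, 4.51 and 4.85 in Torin2 replicates 1 to 4, against 2.28, 2.08, 2.61 and 3.66 in mock replicates 1 to 4. Every Torin2 library was above every mock library. The mean ratio was 4.51 ± 0.323 in Torin2-treated and 2.66 ± 0.701 in mock-treated seedlings (SD, n = 4 each). The difference on the log2 scale was 0.80 (95% interval from the pooled SD 0.34 to 1.25). Exact permutation of the libraries over all 70 assignments gave a two-sided p of 0.0286, the smallest p that 4 libraries against 4 allow, and 0.0571 after Benjamini-Hochberg adjustment over the 2 pairs of copies compared. Libraries of the first kind gave 1.12 and those of the second 0.47, and the value stayed between 0.69 and 0.96 with single libraries left out. These ratios were chosen after the values of the genes were seen.

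**Figure D2:**
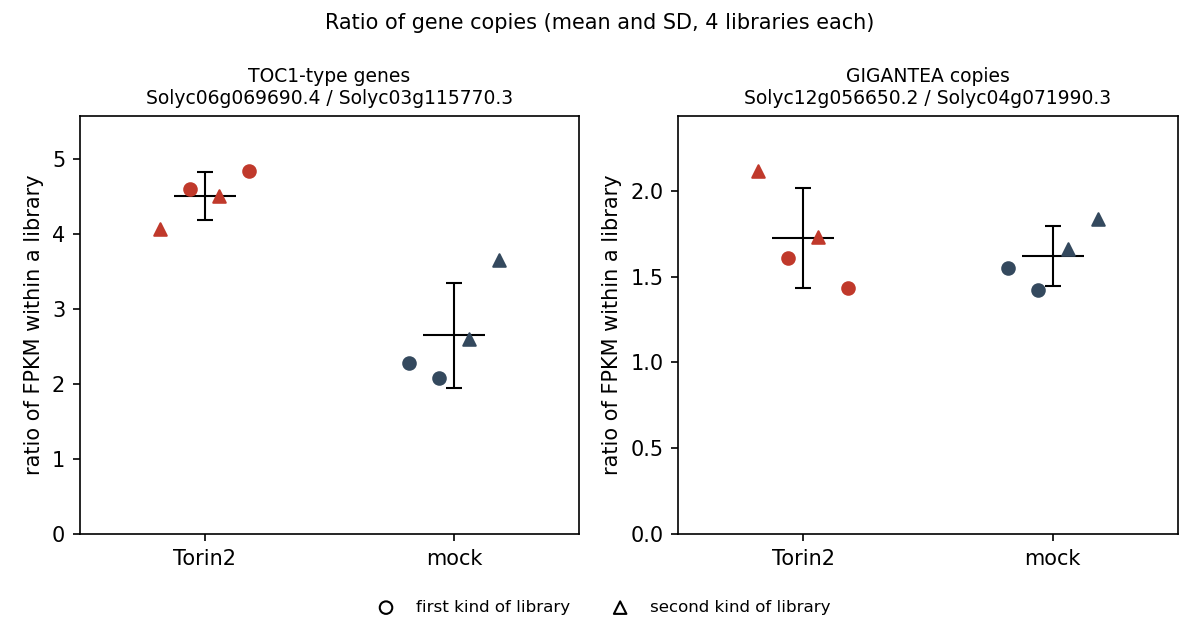
Ratio of FPKM between gene copies within each library (vertical axes, from 0), for the *TOC1*-type genes on the left and the *GIGANTEA* copies on the right, with the Torin2 libraries to the left of the mock libraries in each panel and a black bar for the mean and SD of 4 libraries. The *TOC1*-type ratio is between 4.08 and 4.85 in Torin2 libraries and between 2.08 and 3.66 in mock libraries, while the *GIGANTEA* ratios overlap.

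Both *GIGANTEA* copies had a higher mean in Torin2-treated seedlings, with overlapping groups, and this direction was lost for *Solyc04g071990.3* once the trend with gene length was removed. *Solyc12g056650.2* was measured at 11.97, 22.0, 12.7 and 18.8 FPKM in Torin2 replicates 1 to 4, against 12.9, 13.1, 8.05 and 8.75 FPKM in mock replicates 1 to 4. *Solyc04g071990.3* was measured at 5.65, 13.7, 7.31 and 13.1 FPKM in Torin2 replicates 1 to 4, against 8.33, 9.17, 4.85 and 4.76 FPKM in mock replicates 1 to 4. In both copies Torin2 replicates 2 and 4 stood above every mock library, and Torin2 replicates 1 and 3 lay below the highest mock library. For *Solyc12g056650.2* the log2 fold change was 0.60 (SE 0.27, adjusted p = 0.154 with limma), and it was 0.51 for *Solyc04g071990.3* (SE 0.33, adjusted p = 0.324 with limma). With lengths of 4198 and 4223 bp they are the longest clock genes. After the trend with gene length was removed, the values were 0.04 and -0.05 (limma adjusted p = 0.849 and 0.879).
The ratio of *Solyc12g056650.2* to *Solyc04g071990.3* was 2.12, 1.61, 1.73 and 1.44 in Torin2 replicates 1 to 4, against 1.55, 1.42, 1.66 and 1.84 in mock replicates 1 to 4. The groups overlapped, and the difference was 0.08 on the log2 scale (95% interval -0.26 to 0.43, exact two-sided permutation test p = 0.629, also after adjustment over the 2 pairs). The interval leaves room for a difference in fold change between the copies in either direction.

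*ELF3* (*Solyc08g065870.4*), a scaffold of the evening complex, had 4.02, 7.01, 4.60 and 6.60 FPKM in Torin2 replicates 1 to 4, against 4.06, 4.45, 2.05 and 2.85 FPKM in mock replicates 1 to 4. Of the Torin2 libraries, 3 lay above the highest mock library, and Torin2 replicate 1 fell just short of it. Limma gave a log2 fold change of 0.74 (standard error 0.31, adjusted p = 0.124), which was 0.67 for the first kind of libraries, 0.81 for the second and 0.36 with the length trend removed.
*ELF4* (*Solyc06g051680.1*), a small protein of the same complex, was the single clock gene with a lower mean in Torin2-treated seedlings. It was measured at 46.8, 14.8, 33.2 and 14.1 FPKM in Torin2 replicates 1 to 4, against 23.2, 35.8, 53.1 and 47.9 FPKM in mock replicates 1 to 4. Torin2 replicates 2 and 4 were below every mock library, while Torin2 replicate 1 was above 2 of the mock libraries. Limma gave a log2 fold change of -0.67 (standard error 0.37, adjusted p = 0.240), which was -0.99 for the first kind of libraries and -0.35 for the second. *ELF4* is the shortest clock gene, at 372 bp, and it also had the largest spread. The SD on the log2 scale was 0.86 among Torin2 and 0.53 among mock libraries, where genes with a mean within 2-fold of its own had a median SD of 0.40 and 0.27. For *ELF4* the value without the length trend was -0.92 (limma adjusted p = 0.0534).

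**Figure D3:**
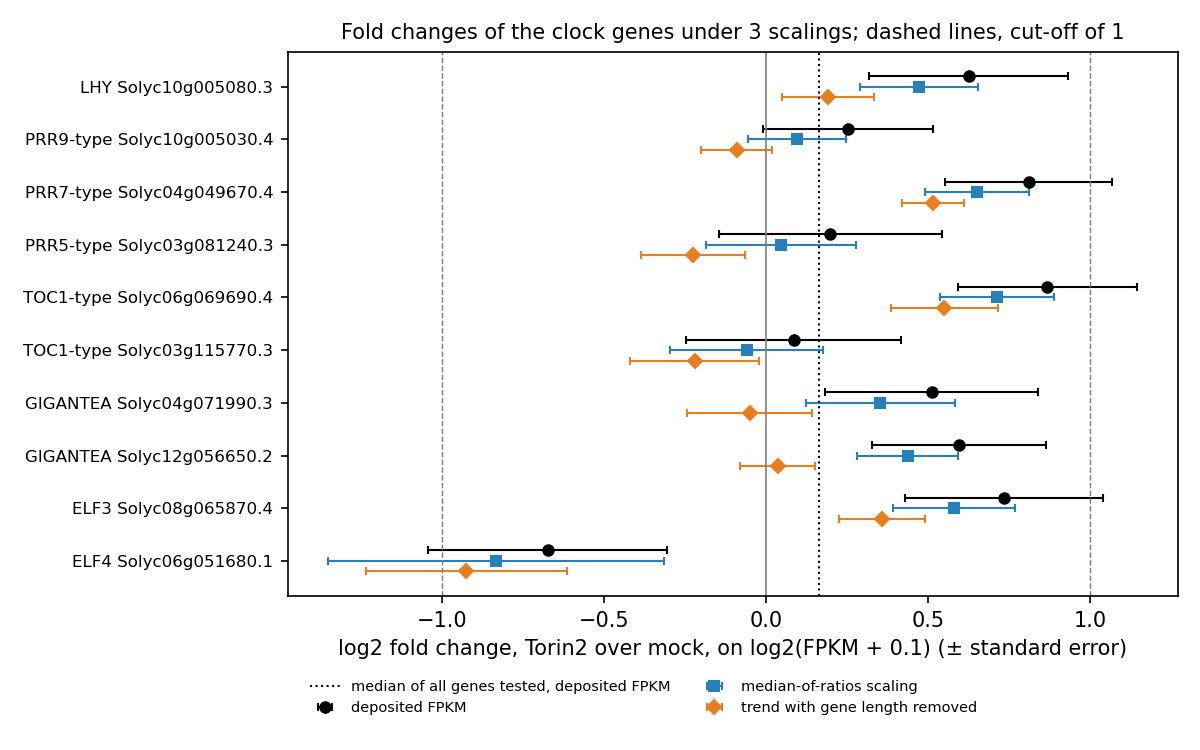
Log2 fold change of each clock gene, Torin2 over mock, on log2(FPKM + 0.1), with bars of 1 standard error (limma), for the deposited FPKM (circles), median-of-ratios scaling (squares) and each library's trend with gene length removed (diamonds). The dotted line is the median of all genes tested (0.16) and the dashed lines are the cut-off of 1 in both directions, which no point passes; the *PRR7*-type gene keeps 0.51 and *Solyc06g069690.4* 0.55 under the length correction, while both *GIGANTEA* copies move to near 0.

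To compare morning with evening genes, the values of both classes were set side by side without a test, since the classes share libraries and were chosen with results known. The median log2 fold change was 0.63 over the 3 morning genes, which ranged from 0.25 to 0.81. It was 0.55 over the 6 evening genes, which ranged from -0.67 to 0.87, or 0.60 over the 5 evening genes without *ELF4*. The ranges of both classes overlapped. With the trend with gene length removed, the medians were 0.19 for the morning and -0.0066 for the evening genes. The mean log2 level of the morning genes minus that of the evening genes was 0.51 ± 0.193 in Torin2 libraries and 0.30 ± 0.128 in mock libraries (SD, n = 4 each), with overlapping groups. Within each kind, no mock library reached the Torin2 libraries in this measure. That split is 2 libraries against 2, by kinds taken from these data, and how often other genes give such an order was not tested. Without *ELF4* the measure was 0.86 ± 0.0376 in Torin2 libraries and 0.85 ± 0.0504 in mock libraries, so that the gap came with *ELF4*. The ratio of *LHY* to *Solyc06g069690.4* was between 0.491 and 0.688 in Torin2 libraries and between 0.639 and 0.758 in mock libraries. The conditions overlapped in this ratio over all libraries. In the first kind it was 0.688 and 0.619 in Torin2 libraries, against 0.743 and 0.758 in mock libraries, and in the second kind it was 0.491 and 0.607 in Torin2 libraries, against 0.686 and 0.639 in mock libraries. Both kinds thus had the lower ratios under Torin2, by little in the second kind. With 2 libraries against 2, and kinds taken from these data, this order is a description and was not tested.

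In order of their mean level in mock-treated seedlings, the clock genes ran from *ELF4* at 40.0 ± 13.4 FPKM through the *PRR7*-type gene, *Solyc12g056650.2* and *Solyc04g071990.3* (*GIGANTEA*), the *PRR9*-type gene, *ELF3*, *Solyc06g069690.4*, *LHY* and the *PRR5*-type gene to *Solyc03g115770.3* at 1.13 ± 0.378 FPKM (SD, n = 4 each). FPKM is a level per length, but it differed between the kinds of library with gene length. The order is therefore a description, least secure for *ELF4*, which is much shorter than the other clock genes. The mock libraries of neighbours in this order overlapped for 7 of 9 neighbours. The steps without overlap were those from the *PRR7*-type gene to *Solyc12g056650.2* and from the *PRR9*-type gene to *ELF3*. In Torin2-treated seedlings the *PRR7*-type gene, at 43.7 FPKM, was above *ELF4*, at 27.2 ± 15.8 FPKM (SD, n = 4), with overlapping libraries. The order depended on the kind of library. In mock libraries of the first kind the *PRR7*-type gene averaged 31.0 FPKM and *ELF4* 29.5 FPKM, while in those of the second kind the *PRR7*-type gene averaged 18.8 FPKM and *ELF4* 50.5 FPKM. *Solyc04g071990.3* was above the *PRR9*-type gene in mock libraries of the first kind (8.75 and 7.79 FPKM) and below it in the second (4.80 and 5.07 FPKM).

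Within each condition, the clock genes moved with the kind of library. In Torin2-treated seedlings, both libraries of the first kind were above both of the second for 8 of the 10 genes, against 58.1% of all genes tested. In mock-treated seedlings it was also 8 of the 10, against 52.1% of all genes tested. Among the 5606 genes tested that were longer than 2000 bp and up to 5000 bp, which take in the 9 longer clock genes, the share was 84.4% in Torin2-treated and 86.4% in mock-treated seedlings. For *Solyc04g071990.3* the mean was 13.4 FPKM in the first and 6.48 FPKM in the second kind under Torin2, against 8.75 and 4.80 FPKM in mock-treated seedlings. *ELF4* went the other way, with 14.4 FPKM in the first and 40.0 FPKM in the second kind under Torin2, against 29.5 and 50.5 FPKM in mock-treated seedlings. Averaged over both conditions, the second kind minus the first was between -0.95 and -0.40 on the log2 scale for the 9 longer genes and 1.12 for *ELF4*. The median over all genes tested was -0.64 for lengths from 2000 to 2500 bp, -0.63 from 2500 to 3000 bp, -0.51 from 4000 to 5000 bp and 0.31 up to 400 bp. All 10 clock genes thus had the sign of the median of their length. Further from 0 than that median were *ELF4*, *Solyc04g071990.3* (-0.95), the *PRR5*-type gene (-0.82), *ELF3* (-0.72), the *PRR7*-type gene (-0.69) and *Solyc12g056650.2* (-0.67). Closer to 0 were *Solyc06g069690.4* (-0.40), the *PRR9*-type gene (-0.54), *Solyc03g115770.3* (-0.54) and *LHY* (-0.61). The 10 most abundant genes of a library took 5.63% to 6.91% of the fragments in the first kind and 8.59% to 12.04% in the second. The part of gene length and of this share in the differences of the clock genes was not tested.

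**Figure D4:**
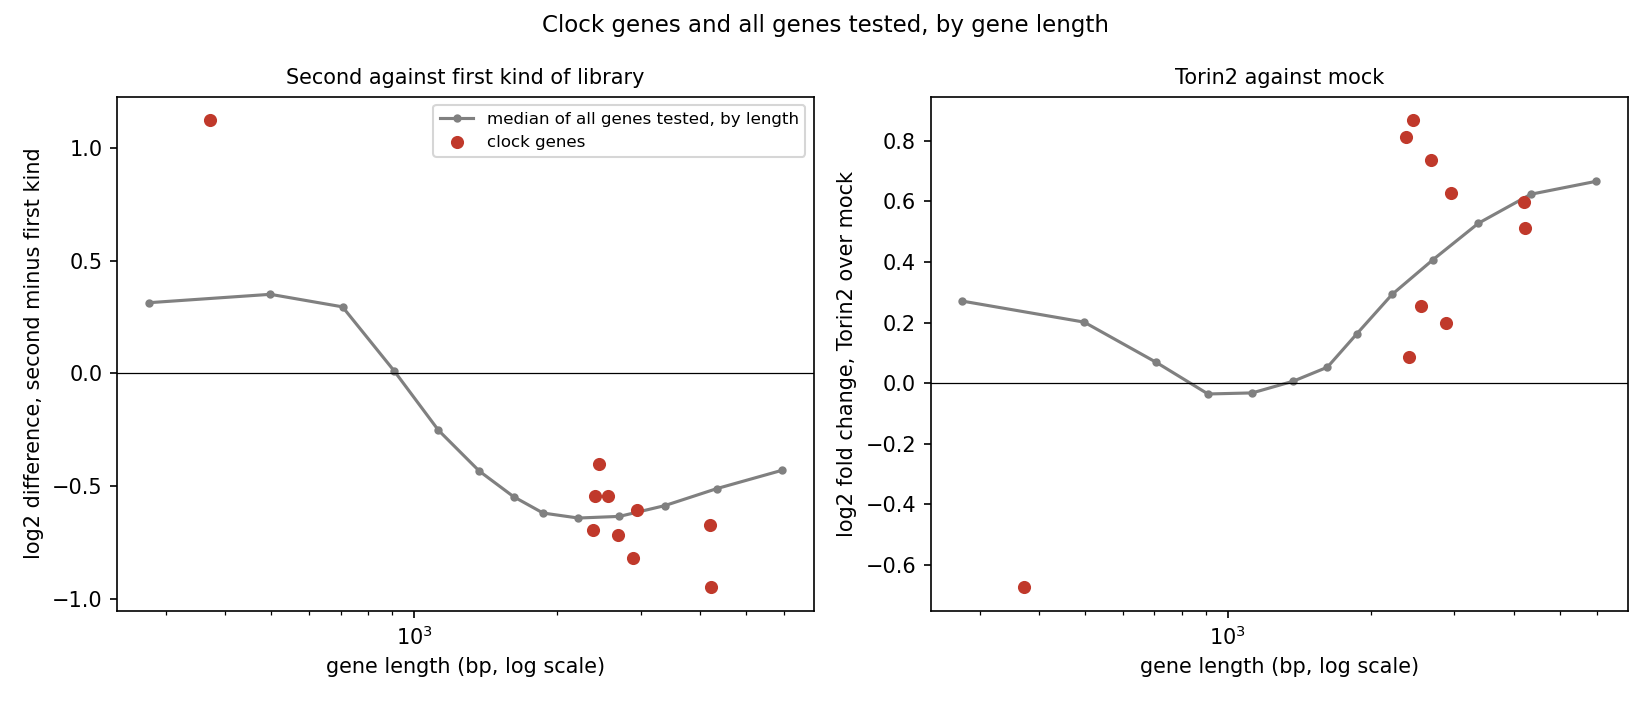
Clock genes (red points) and the median of all genes tested in bins of gene length (grey line) against gene length in bp on a log axis; the left panel shows the second kind of library minus the first on the log2 scale, the right panel the log2 fold change of Torin2 over mock. In the left panel *ELF4*, at 372 bp, stands at 1.12 and the other 9 genes between -0.95 and -0.40; in the right panel the 2 *GIGANTEA* copies lie close to the median of genes of 4000 to 5000 bp (0.62).

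The log2 fold change of Torin2 over mock also varied with gene length over all genes tested, and was lowest at intermediate lengths. Its median was 0.27 for genes up to 400 bp, 0.20 for 400 to 600 bp, -0.04 for genes of 800 to 1000 bp, 0.29 for 2000 to 2500 bp, 0.41 for 2500 to 3000 bp and 0.62 for 4000 to 5000 bp. Against these values, *LHY* (0.63 at 2954 bp) and *ELF3* (0.74 at 2682 bp) lay above the median of their length. So did the *PRR7*-type gene (0.81 at 2377 bp) and *Solyc06g069690.4* (0.87 at 2456 bp). *Solyc03g115770.3* (0.09), the *PRR9*-type gene (0.25 at 2555 bp) and the *PRR5*-type gene (0.20 at 2886 bp) lay below the median of their length. The *GIGANTEA* copies (0.60 at 4198 bp and 0.51 at 4223 bp) lay below it as well. *ELF4* (-0.67 at 372 bp) was the clock gene furthest from the median of its length. Non-overlap was found for 2 of the 10 clock genes, the *PRR7*-type gene and *Solyc06g069690.4*, both with Torin2 above mock. Over all genes tested, 11.4% had every Torin2 library above every mock library. This share was not taken by gene length, and both genes lie between 2000 and 2500 bp, where the median was 0.29. The exact two-sided permutation p, not adjusted, was 0.0286 for each of the 2 genes. Any gene without overlap takes this value, the smallest possible here, so it only restates the non-overlap.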

How the data were processed

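Whole Micro-Tom seedlings treated with 5 μM Torin2 or with 0.1% DMSO gave 4 libraries each. The authors sequenced 150-bp paired-end reads, used HISAT2 to align them to the SL4.0 genome, and deposited 1 column of FPKM per library, without pooling. The processing notes also name fastp, FastQC, SAMtools and HTSeq. The annotation release and gene lengths are not given in the sources used here.

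Limma 3.58.1 (R 4.3.3, mean-variance trend, no covariate) was run on log2(FPKM + 0.1) for 22330 genes, those whose mean reached 0.1 FPKM. P-values were adjusted over all of them, and a call required an adjusted p under 0.05 with a log2 fold change beyond 1 in either direction. Fold changes of low genes are understated by the pseudocount. The study itself tested counts, and limma was used because the deposited values are FPKM. The study's methods call the libraries of a group biological replicates and do not say how seedlings were divided among them. P-values measure the spread between these libraries.

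Fragments behind each value were recovered as whole numbers (tolerance 0.01) from 1 depth per library and 1 whole length per gene, which gave all 25571 genes above 0 whole fragments and between 99.7% and 99.8% of the depth. The precision that fragment numbers give covers counting error only, as PCR copies were not marked by molecular identifiers. Both steps were tested on simulated data, which held no kinds of library and no trend with gene length. How these features bear on the calls was therefore not covered. Further software was scipy 1.17.1, pandas 2.3.3, numpy 2.4.6 and matplotlib 3.10.9 under Python 3.11.15.

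The clock genes, their classes and the tests were chosen with earlier results of these data known. The text names all 10 genes and, by a fixed rule, genes of like pattern. Alternatives were other pseudocounts, filters and scalings, limma-voom, the replicate number as a block, the kind of library, a loess fit on gene length (span 0.3) subtracted in each library and each library left out. Lists of other clock, light and output genes, tissue markers and promoter motifs were not used here, since no annotation paired their names with identifiers.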

Additional observations from a re-analysis of the deposited data

Results flagged for a closer look

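Each of the 10 clock genes has a group of 4 libraries in both conditions. In 1 of these 20 groups, 1 library stood apart from the other 3 by more than Dixon's limit for 4 values allows, and chance alone gives 1.0. It was mock replicate 3 for *Solyc06g069690.4*, at 1.98 FPKM, whereas the remaining mock libraries lay between 3.05 and 3.31 FPKM. Its distance to the nearest of them made up 0.837 of the spread from lowest to highest log2 value. Without mock replicate 3 the log2 fold change of this gene was 0.71.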

How the results depend on the processing

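The 23 alternatives gave 230 log2 fold changes for the 10 clock genes, of which 213 were the same in direction and call as those of the report, 16 changed direction and 1 gained the call. None of the genes that changed direction was called. The cause of these changes was not tested.
With the length trend removed, alone or with the added replicate block, the value was -0.0903 for *Solyc10g005030*, -0.22 for *Solyc03g081240*, -0.22 for *Solyc03g115770* and -0.0497 for *Solyc04g071990*. *Solyc03g081240* was -0.0529 after quantile normalization, and between -0.0015 and 0.41 with 1 library left out. *Solyc03g115770* was -0.0586 after median-of-ratios scaling, -0.14 after quantile normalization, -0.0860 with limma-voom, -0.16 in the first kind alone, and between -0.0690 and 0.23 with 1 library left out. The medians without the length trend, with and without the added replicate block, were 0.19 for the morning and -0.0066 for the evening genes.
The number of clock genes past both cut-offs was 0, and 0 or 1 with 1 library left out. With an adjusted p under 0.05 it was 0, and 1 with a pseudocount of 0.01 FPKM, 2 with a filter at a mean of 1 FPKM, 2 with median-of-ratios scaling, 2 with quantile normalization, 3 with limma-voom, 7 with the kind of library as a covariate, 2 with the length trend removed, 7 in the first kind alone (added), 0 in the second kind alone (added), and 0 or 1 with 1 library left out. It stayed at 0 with TPM, a pseudocount of 1 FPKM, no filter on low values and no mean-variance trend.
Same-numbered deviations correlated at -0.38, 0.38, 0.40 and -0.25, and not every library correlated best with its own number. The signs followed the kind of library, so these values cannot decide whether the replicate numbers pair the libraries. With the replicate block 1 clock gene was higher at an adjusted p under 0.05 (7.19% of all genes tested), and 1 with the block and the length trend removed together (added; 10.1%).
Over all genes tested, 1186 were higher past both cut-offs, and 642 with a pseudocount of 1 FPKM, 769 with median-of-ratios scaling, 769 with TPM, 736 with quantile normalization, 770 with the length trend removed, 739 with the added replicate block besides, and from 663 to 1531 with 1 library left out. It was 663 without mock replicate 4 and 765 without Torin2 replicate 4, the leave-outs that moved it by over 1.5 times. The 671 lower genes became 444 with a pseudocount of 1 FPKM, 1011 with median-of-ratios scaling, 1067 with limma-voom (with 797 higher), 934 with quantile normalization and 910 with the length trend removed, and ranged from 490 to 793 with 1 library left out. Median-of-ratios scaling shifted all genes, with a median log2 fold change of 0.0129 in place of 0.16. *Solyc03g115770.3*, with 73 to 139 fragments, is the clock gene most limited by depth.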

Other observations

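The pattern of *LHY* over the 8 libraries was compared with that of the 18545 other genes whose mean reached 1 FPKM, as a description with no test. The libraries share the kind and the trend with gene length. Among clock genes, *Solyc12g056650.2* (*GIGANTEA*) was most like *LHY*, with a Pearson's r of 0.96 and rank 263, followed by *ELF3* with 0.96 and rank 368 and the *PRR7*-type gene with 0.95 and rank 596. *Solyc03g115770.3* was least like it among the longer genes, with 0.66 and rank 7606, and *ELF4* was opposite to it, with -0.88. The 5 genes closest to *LHY* had an r between 0.990 and 0.996, led by *Solyc05g025510.3* and *Solyc03g043870.3*, which are named only by identifier. For *Solyc04g071990.3* (*GIGANTEA*), its other copy had an r of 0.96 and rank 533, and *ELF4* had -0.94. The 5 genes closest to it had an r between 0.994 and 0.997, led by *Solyc08g066500.5* and *Solyc04g010080.3*.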
